A study of Bos taurus with 20 samples.

Results

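The genes described here are 9 that were grouped as B cell identity genes, out of 37063 genes in the count files: MS4A1, CD79A, CD79B, PAX5, BLK, CR2, CD22, FCRLA and EBF1. They were chosen by name, and each symbol was matched to 1 Entrez identifier of the counts through a RefSeq gene table. Whole blood was taken from 20 recipient cows at day 63 of gestation into Tempus tubes, which preserve RNA at the draw, and each cow gave 1 RNA-seq library. Every cow carried a female fetus of beef breed, from an in vitro-produced embryo made with X-sorted semen, and no cow is labelled as a control. The weight of the calf at birth (BW), from 30 to 72.5 kg, was the only variable by which the sample labels tell the cows apart. The cows also differed in age according to the paper, and their ages and parities are not in the labels and were not used here. The methods call the recipients lactating dairy cows, whereas a table of the study lists them as Angus, and the sample labels name no breed. Total counts per cow were between 24632077 and 39892111, and no batch is labelled.

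B cells are the lymphocytes that make antibodies. Their antigen receptor is a membrane immunoglobulin that cannot signal by itself and is paired with CD79A and CD79B, whose cytoplasmic tails are phosphorylated by Src family kinases such as BLK. The transcription factors EBF1 and PAX5 establish and maintain the B cell fate, MS4A1 (CD20) is the surface protein by which B cells are commonly counted, CR2 (CD21) binds fragments of complement and lowers the threshold of the receptor, and CD22 is an inhibitory co-receptor. FCRLA is an intracellular protein of the Fc receptor-like family found in B cells. In blood the RNA of these genes depends on how many B cells there are and on how much RNA each cell holds, and in bulk samples fewer cells and less RNA per cell cannot be told apart.

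All 9 genes were detected in every cow, and all 9 passed the filter of at least 10 counts in at least 5 cows. The fewest reads in any cow were 900, for FCRLA, so counting error was small beside the differences between cows. Levels are given as CPM, the counts of a gene scaled to a fixed library total, here with TMM normalization. Because a longer transcript collects more reads and no transcript lengths were used here, the CPM of different genes are not ranked against each other.

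The 2 signalling chains of the receptor were both present. CD79A (Entrez 281674) had a lowest CPM of 84.2, a median of 112 and a highest of 150 (mean 114 ± 17.4, SD, n = 20). For CD79B (Entrez 509801) these values were 114, 179 and 252 (mean 184 ± 35.6, SD, n = 20). Both chains were lowest in the dam of the 47.4 kg calf and highest in that of the 43 kg calf. The ratio of CD79A to CD79B ranged from 0.547 to 0.741 across cows, a spread of 1.36-fold, which is narrower than the range of either chain alone (1.79-fold and 2.22-fold).

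Among the surface proteins, MS4A1 (Entrez 505653) ranged from 217 to 412 CPM with a median of 316 (mean 313 ± 60.2, SD, n = 20), lowest in the dam of the 35 kg calf and highest in that of the 41.5 kg calf. CD22 (Entrez 514582) ranged from 278 to 537 CPM with a median of 435 (mean 420 ± 72.9, SD, n = 20). CR2 (Entrez 407126) ranged from 104 to 230 CPM with a median of 170 (mean 170 ± 33.6, SD, n = 20). The cow with the lowest CD22 was again that of the 47.4 kg calf, whereas CR2 was lowest in the dam of the 32 kg calf and highest in that of the 50 kg calf.

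Of the transcription factors, PAX5 (Entrez 538371) ranged from 83.3 to 185 CPM with a median of 129 (mean 129 ± 26.8, SD, n = 20). EBF1 (Entrez 537712) ranged from 29.0 to 69.6 CPM with a median of 47.7 (mean 47.9 ± 10.9, SD, n = 20), and its 2.40-fold range was the widest of the 9 genes. FCRLA (Entrez 782871) ranged from 28.3 to 57.1 CPM with a median of 39.0 (mean 39.7 ± 7.72, SD, n = 20). These 3 genes had CVs between 19.5% and 22.8%. The kinase BLK (Entrez 532587) ranged from 45.4 CPM (dam of the 36 kg calf) to 80.7 CPM (dam of the 30 kg calf), with a median of 56.9 (mean 58.1 ± 9.61, SD, n = 20). Its range of 1.78-fold was the narrowest of the 9 genes.

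**Figure D1:**
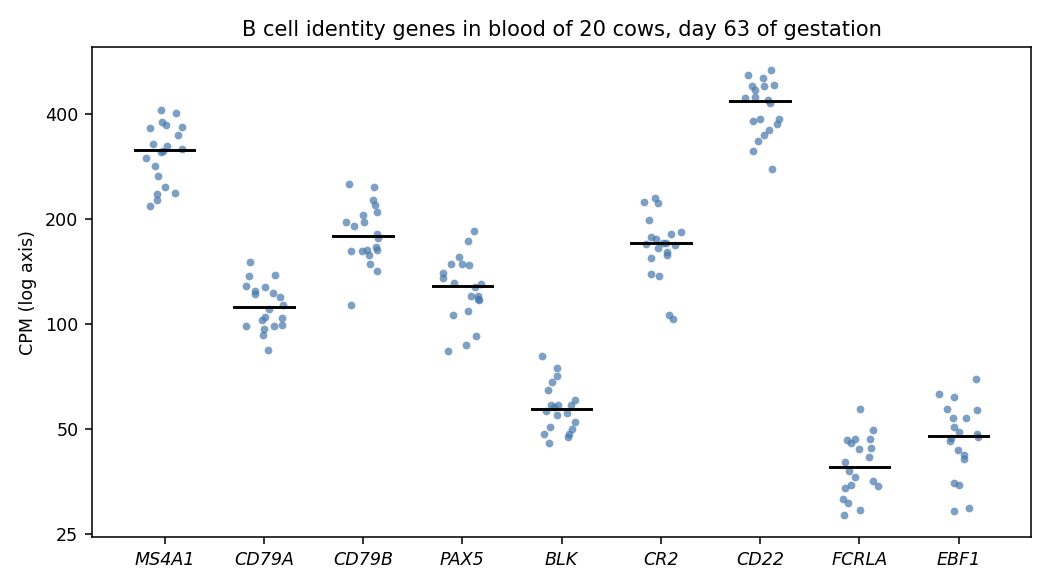
CPM of each of the 9 genes on a log axis, with 1 point per cow (20 cows) and a black line at the median. The highest cow was between 1.78 and 2.40 times the lowest for each gene.

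These genes varied more between cows than most genes of like abundance. The SD of log2 CPM over the 20 cows was between 0.22 for CD79A and 0.35 for EBF1. Each gene was placed among the 500 tested genes nearest to it in mean log2 CPM, and its SD was higher than in 85.2% (BLK) to 95.6% (MS4A1) of them. Among all genes tested, which include many of low abundance with a large SD, the percentiles were between 48.9 and 64.3. These percentiles describe the 20 libraries and were not tested.

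Across the cows 8 of the 9 genes varied together, and the correlations of BLK with them were small. Of the 36 pairs of genes, the 28 pairs that do not include BLK had Pearson correlations of log2 CPM between 0.71 and 0.95 with a median of 0.86, and Spearman correlations between 0.77 and 0.95 (20 cows, 1 library each). Two-sided permutation tests with 100000 resamples gave p-values from 1e-05, the smallest they can give, to 0.00033 for these pairs. Adjusted over the 36 pairs by the Benjamini-Hochberg method, the largest was 0.00042. In contrast, the 8 pairs with BLK had Pearson correlations between -0.28 and 0.15 with a median of 0.061, and the smallest permutation p was 0.232 (adjusted 0.288). The smaller correlations do not show that BLK was unrelated to the others, and the difference between the 2 sets of correlations was not tested. BLK was singled out here after its values had been seen.

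The closest pair was CD22 and EBF1, at 0.95 by Pearson and 0.94 by Spearman correlation (permutation p = 1e-05 for both). CD79A was most closely paired with FCRLA (0.93) and with its partner chain CD79B (0.92). PAX5 and EBF1 had a correlation of 0.93. CR2 was the loosest of the 8, with correlations from 0.71 with CD79A to 0.84 with CD79B.

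These correlations did not rest on single cows. Over the 20 sets in which 1 cow was left out, the lowest correlation among the 28 pairs was 0.63, and the highest between BLK and any other gene was 0.32. When the 2 cows farthest from the median of the first gene of a pair were left out, the 28 correlations were between 0.58 and 0.96 and those with BLK between -0.41 and 0.19. The 3 cows with the lowest summed CPM of the 9 genes were those of the 47.4, 37 and 32 kg calves, at 1021, 1131 and 1132 CPM. Without these 3 cows, a set chosen after the values were seen, the 28 correlations were between 0.46 and 0.95.

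**Figure D2:**
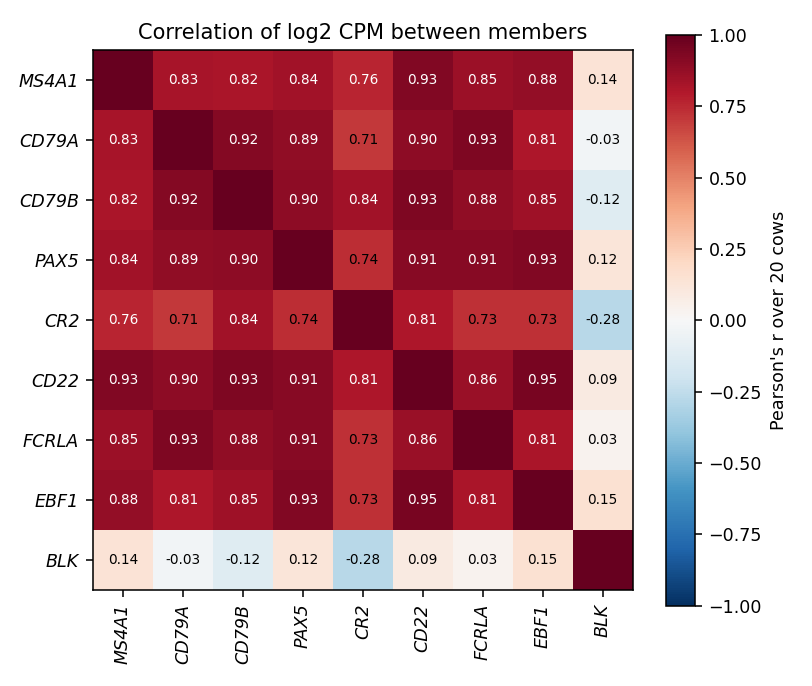
Pearson correlation of log2 CPM for each pair of genes over 20 cows, from -1 (blue) to 1 (red), with the value in each cell. The 8 genes in the upper left are at 0.71 or above with each other, and the last row and column, BLK, lie between -0.28 and 0.15.

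Against the background of all genes the 8 were close neighbours. For each of them, 7 of the other 8 members had a correlation above 0.7, the missing one being BLK, whereas between 0.627% and 1.62% of the other 16268 tested genes did. Ranked among all genes, the nearest other member of each of the 8 was in a place from 1 to 7. For CD79A the nearest of all genes was FCRLA, for FCRLA it was CD79A, and for MS4A1 it was CD22. For BLK the nearest other member, EBF1, was only in place 4904.

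The cows showed the pattern as whole columns of high or low values. The cow of the 47.4 kg calf was the lowest of all cows for CD79A, CD79B, CD22, FCRLA and EBF1, and it was among the 5 lowest for all 8 genes. It was nevertheless among the 5 highest for BLK, at 68.2 CPM. The cow of the 36 kg calf was the opposite case, being among the 5 highest for 7 of the 8 genes and the lowest of all for BLK, at 45.4 CPM. The cow of the 30 kg calf was above the median for all 9 genes, as were those of the 41.5 kg and 72.5 kg calves.

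**Figure D3:**
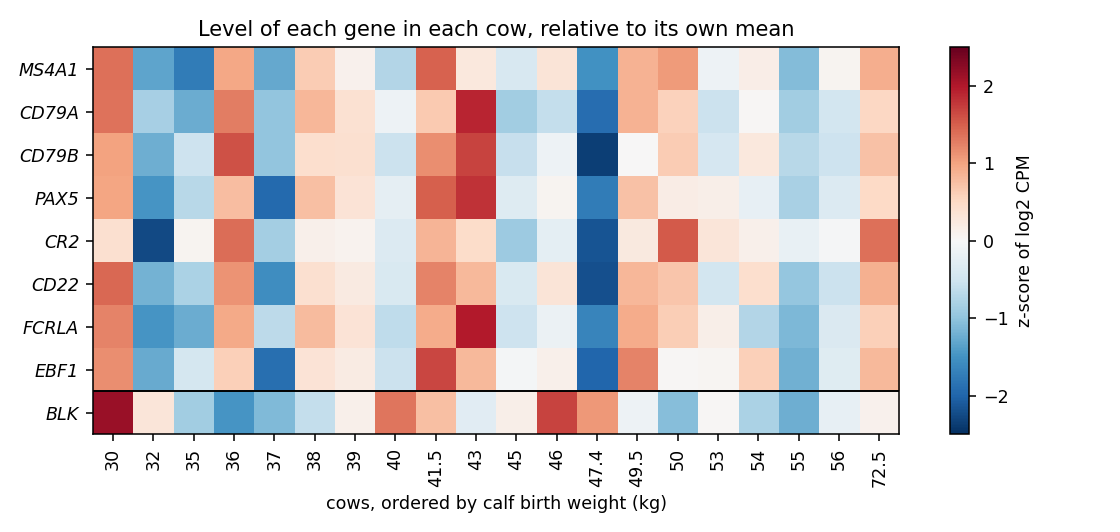
Level of each gene in each of the 20 cows as a z-score of its log2 CPM (blue below and red above the mean of that gene), with cows ordered by calf BW from 30 to 72.5 kg. The upper 8 rows share their red and blue columns, BLK below the line does not, and neither colour gathers at one end of the BW axis.

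The genes whose pattern was most like that of the 9 were found by the Pearson correlation with the mean z-score of the 9 genes over 20 cows. Among the 10 highest were PIK3C2B, ITPR1, FZD5, TRABD2B, MMP28, WDFY4, BCL11A, ERBB2 and BANK1, with correlations from 0.97 to 0.92. Of these, BCL11A (0.92), a transcription factor of early lymphoid cells, and BANK1 (0.92), a scaffold of B cell receptor signalling, belong to the lists of B cell genes described next. ITPR1, the channel that releases calcium after receptor signalling, ranged from 126 to 204 CPM, and its correlation with EBF1 was the highest of any gene for EBF1. FZD5, a receptor for Wnt proteins, ranged from 29.3 to 71.8 CPM and MMP28, a secreted protease, from 6.28 to 21.3 CPM. All of these values describe the same 20 libraries and carry no p.

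Other genes of the B cell receptor pathway shared the pattern in part. Of 13 signalling genes, 9 had a correlation above 0.5 with the mean z-score, and of 13 B cell transcription factors and 12 measured surface genes 8 each did, against 5.63% of the 16260 tested genes outside the members. The median correlations of the 3 lists were 0.73, 0.55 and 0.60, where the median of all genes was -0.015. The ends of the lists, named after their values were seen, were PIK3CD (-0.060), the lowest, for signalling, BCL11A (0.92) and FOXO1 (-0.23) for transcription factors, and TNFRSF13C (0.90), the receptor for the survival factor BAFF, and CD24 (-0.11) for surface genes. Of the 6 genes that restrain the receptor, 2 were above 0.5, and the highest was INPP5D at 0.62. CD37, a further surface gene, is listed at 0 in every cow. Many genes of these lists, such as PIK3CD, FOXO1 and LYN, are also used by other leukocytes.

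Among 9 genes of plasma cells, the antibody-secreting descendants of B cells, 1 had a correlation above 0.5, DERL3 (0.51), against the same 5.63% of genes outside the members, and the median was -0.094. The difference from the other lists was not tested. JCHAIN, which joins immunoglobulin chains in secreted IgM and IgA, had a median of 233 CPM and a correlation of 0.21, and FKBP11 had a median of 130 CPM and a correlation of -0.45. The heavy chain gene IGHM, for the IgM that naive B cells carry, had a correlation of 0.60 at a median of 91.9 CPM, whereas IGHG1 had one of -0.064 at a median of 527 CPM. Reads of immunoglobulin genes can fit several gene segments, and how such reads were counted is not stated, so both are uncertain.

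Levels of other blood cells were compared through lists of their marker genes. The summed CPM of the 12 T cell genes, all of them detected, ranged from 1318 to 2072, and it was highest in the dam of the 47.4 kg calf and lowest in that of the 43 kg calf. Higher T cell levels went with lower levels of 8 of the 9 B cell genes, with Pearson correlations from -0.60 for MS4A1 to -0.85 for CR2. For CR2 the permutation p was 2e-05, the Spearman correlation was -0.84 (permutation p = 1e-05), the adjusted p over 81 pairs of genes and lists was 0.00081, and the Pearson correlation without the 2 cows farthest from the median T cell level was -0.67. CD79B gave -0.85 (Spearman -0.83, permutation p = 1e-05 for both, adjusted 0.00081) and -0.74 without these 2 cows. Without them the rest of the 8 genes were between -0.64 for CD79A and -0.40 for MS4A1. The 2 cows, those of the 47.4 and 32 kg calves, were also among the lowest in the summed CPM of the members. With 7 of the 8 genes the adjusted Pearson p was at most 0.0251, and MS4A1 (p = 0.0053, adjusted 0.0538, permutation test) was the exception. By Spearman correlation all 8 had an adjusted permutation p under 0.05, that of MS4A1 being 0.0298. With total counts in place of TMM, 5 pairs passed by Pearson correlation in place of 7. CPM are shares of 1 library, and the part that the T cell level had in the levels of the B cell genes was not tested.

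BLK moved the other way. Its Pearson correlation with the T cell level was 0.48 and its Spearman correlation 0.48 (permutation p = 0.0329 and 0.0314, adjusted 0.167 and 0.150 over 81 pairs), and the Pearson correlation was 0.45 without the 2 cows farthest from the median. This relation did not pass the adjustment. Taken singly, all 12 T cell genes had a negative correlation with the mean z-score of the 9 members. ZAP70 and CD3E, with the highest CPM of the list, had correlations of -0.49 and -0.70.

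None of the other lists gave an adjusted Pearson p under 0.05 with any member. Natural killer cell genes came nearest, with 8 of 9 correlations negative, a lowest of -0.59 for CD79B (permutation p = 0.0061, adjusted 0.0545), and 4 members with an adjusted Spearman p under 0.05. Of that list, GZMA and CTSW are listed at 0 in every cow. The neutrophil level, the sum of 7 genes with a range from 1551 to 3323 CPM, had correlations between -0.36 and 0.13 with the 9 genes (smallest permutation p = 0.116). For monocytes they were between -0.43, the value of BLK, and 0.085. The Spearman correlation of BLK with the monocyte level was -0.52 (permutation p = 0.019, adjusted 0.110 over 81 pairs). The correlations of the 9 genes were between -0.19 and 0.12 for platelets and between -0.31 and 0.21 for red cell genes. For the eosinophil gene IL5RA they were between -0.22 and 0.062, for plasma cells between -0.14 and 0.16, and for immunoglobulin genes between -0.098 and 0.13. IL5RA stands alone for eosinophils, since 2 of its list, CCR3 and ALOX15, are listed at 0 in every cow and 2 others were not matched. The total count of the library had correlations between -0.26 and 0.0030 with the 9 genes, and the smallest permutation p was 0.271.

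The correlations were recomputed on residuals after the T cell level had been taken out of each gene. The 28 pairs without BLK then had correlations between 0.24 and 0.91 with a median of 0.75, and 23 of them had an adjusted permutation p under 0.05. The 5 that did not were all pairs with CR2. The pairs with BLK were between 0.27 and 0.69 with a median of 0.60, and 7 of the 8 passed, with adjusted p-values from 0.0011 for CD22 to 0.0154 for CD79A (20 cows, permutation test). The pair of BLK and CR2 was at 0.27 (adjusted permutation p = 0.264). BLK and the other genes had correlations of opposite sign with the T cell level, so taking it out raises their correlations by arithmetic. These p-values are therefore no separate support for a relation, and BLK had been singled out after its values were seen. Taking out the neutrophil level instead, an alternative added after seeing the data, left the pairs with BLK between -0.25 and 0.14.

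The genes most like BLK were of another kind. In order of their Pearson correlation over 20 cows, the first 5 were WC1.3 (0.89), SOX13 (0.88), L1CAM (0.81), CD163L1 (0.79) and LAMA4 (0.77). They were looked up after the position of BLK had been seen and carry no p. WC1 proteins are scavenger receptors found on many γδ T cells of cattle blood, CD163L1 is of the same gene family, and SOX13 is a transcription factor known from the development of γδ T cells, a class in which BLK is also known to be expressed in mice. WC1.3 ranged from 23.4 to 72.9 CPM with a median of 44.5, and SOX13 from 15.2 to 60.3 CPM with a median of 34.2. Their correlations with the other 8 members were between -0.35 and 0.16 and between -0.41 and -0.023, respectively.

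Most of the γδ T cell genes examined had only small correlations with BLK. In all, 10 genes of γδ T cells were examined, of the WC1 and CD163 family, the T cell receptor γ chain and SOX13, and all 10 passed the filter. WC1 had a correlation with BLK of 0.61 and was in place 64 of all genes. In contrast, WC1-10, WC1-12 and WC1-8 had 0.23, 0.20 and 0.15, and the γ chain genes TRGC3, TRGC4 and TRGC6 had 0.26, 0.32 and 0.068. A link of BLK to γδ T cells was not tested. The WC1 and TRGC genes are families of close copies whose reads may be shared, so values of single members are uncertain. With the level of WC1.3 taken out of each gene, also chosen after seeing the data, the correlations of BLK with the other 8 members were between 0.026 and 0.30. WC1.3 was picked as the gene most correlated with BLK, so these values are no separate support for a relation.

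**Figure D4:**
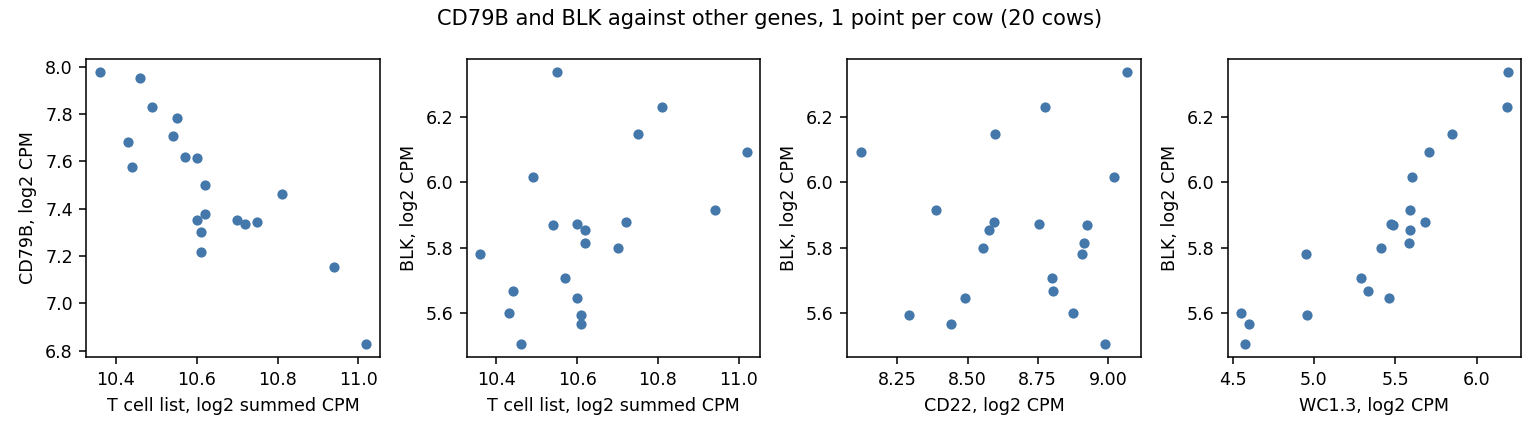
Scatter plots of log2 CPM with 1 point per cow (20 cows): CD79B and BLK against the log2 summed CPM of 12 T cell genes, BLK against CD22, and BLK against WC1.3. CD79B falls as the T cell level rises (Pearson correlation -0.85), BLK shows 0.48 with the T cell level, 0.089 with CD22 and 0.89 with WC1.3.

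The relation to calf BW was tested with edgeR's quasi-likelihood test over 16206 genes in 19 cows. The dam of the 72.5 kg calf was left out, and the next heaviest calf weighed 56 kg. No association with calf BW was detected for any of the 9 genes. The number with an unadjusted p under 0.05 was 0 of 9, where 13.9% of all genes tested had one, and with a false discovery rate (FDR) under 0.05 it was 0 of 9, where 0% of all genes did. DESeq2's Wald test also gave 0 of 9 at either threshold, where 10.7% of the genes it tested had an unadjusted p under 0.05 and 0.827% an FDR under 0.05. A list of 9 genes cannot tell 0 from these shares. Slopes are log2 fold changes per kg of BW. They were between -0.0084 for CD79B and 0.0026 for CR2 with a median of -0.0057, beside a median of -0.00072 over all genes tested.

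The smallest p-value belonged to BLK, with a slope of -0.0083 (standard error 0.0065, p = 0.215, FDR 0.614 with edgeR). It ranged from -0.011 to -0.0015 with 1 cow left out, and the value nearest 0 was that without the dam of the 30 kg calf. CD79A had a slope of -0.0071 (standard error 0.0063, FDR 0.667) and CD79B one of -0.0084 (standard error 0.0080, FDR 0.685). MS4A1 and CR2 had slopes of -0.0013 (standard error 0.0081, FDR 0.964) and 0.0026 (standard error 0.0081, FDR 0.926). PAX5, CD22, FCRLA and EBF1 were between -0.0065 and -0.0030, and their FDR was between 0.778 and 0.929. A negative slope was found in 8 of the 9 genes, but 7 of these 8 vary together and do not count as separate observations, and a positive slope was found in 46.6% of all genes tested.

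The intervals show how large a relation these 19 cows leave possible. For a calf 10 kg heavier, the fitted ratio of BLK was 0.944 with a 95% interval from 0.860 to 1.04, and that of MS4A1 was 0.991 with an interval from 0.882 to 1.11. Over the 9 genes the lowest bound was 0.841, for CD79B, and the highest was 1.15, for CR2. A change of a few percent per 10 kg in either direction is therefore inside every interval, and a p above the threshold does not show that there was none.

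**Figure D5:**
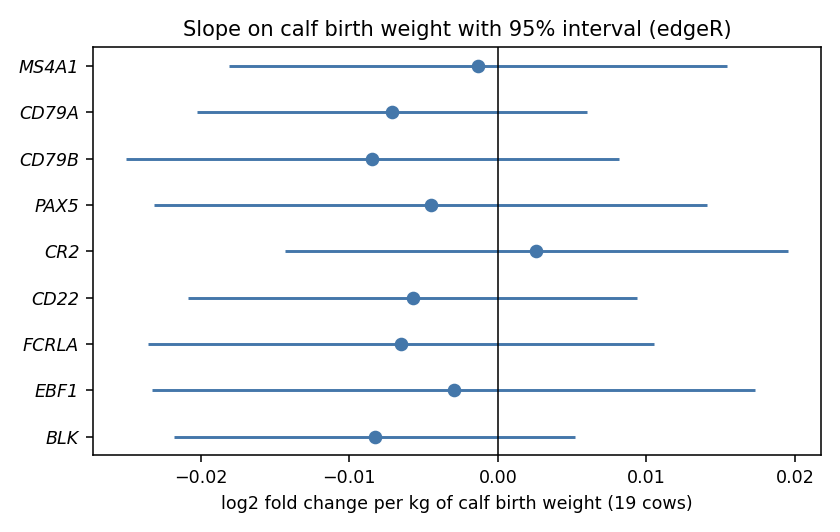
Slope of each gene on calf BW (log2 fold change per kg, 19 cows, edgeR) as a point with its 95% interval as a line. Every interval crosses 0, and the points lie between -0.0084 and 0.0026.

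In all 20 cows, 9 correlations with BW were computed without a model. The Pearson correlation of log2 CPM with BW was between -0.16 for BLK (permutation p = 0.503) and 0.29 for CR2 (permutation p = 0.211), and Spearman correlations were between -0.14 and 0.15, with a smallest permutation p of 0.513. Without the 2 cows farthest from the median BW the Pearson correlations were between -0.10 and 0.19. With the T cell level as a covariate in edgeR, CD79B had a slope of -0.0093 and an unadjusted p of 0.0353 (FDR 0.285 with edgeR), where 15.2% of all genes tested in that fit had a p under 0.05. It was the only one of 279 tests of a member over all 31 fits with a p under 0.05, and these tests reuse the same cows.

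For the wider B cell lists, calls at an unadjusted p under 0.05 are set beside the share of all genes tested, 13.9% over both directions (edgeR, 19 cows). No gene of these lists had an FDR under 0.05, where 0% of all genes tested had one. Upward calls were 1 of 13 signalling genes, 1 of 6 inhibitory genes, 0 of 13 transcription factors and 1 of 12 surface genes, where 6.78% of all genes tested were called upward. Downward calls were 0, 0, 3 and 0 in the same order, where 7.08% of all genes were called downward. The 3 were IRF8 (slope -0.016, standard error 0.0049, FDR 0.182), BACH2 (-0.017, standard error 0.0062, FDR 0.230) and POU2AF1 (-0.011, standard error 0.0052, FDR 0.338). IRF8 also acts in monocytes and dendritic cells and belongs to the interferon-responsive factors, and BACH2 is also used by T cells. The correlations of IRF8 and BACH2 with the mean z-score of the members were 0.23 and 0.32, and that of POU2AF1, a coactivator of B cells, was 0.83. The 3 upward genes were BTK (0.014, standard error 0.0053, FDR 0.248), PTPN22 (0.016, standard error 0.0051, FDR 0.193) and CD24 (0.028, standard error 0.011, FDR 0.264), with correlations of 0.20, -0.25 and -0.11. Of the 8 plasma cell genes and the 12 T cell genes tested, 0 had an unadjusted p under 0.05, where 13.9% of all genes tested did. Lists this short cannot tell 0 from that share.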

How the data were processed

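Reads were trimmed by the authors with Trimmomatic, aligned with STAR 2.7.0b to the cattle genome (bosTau9, with an ARS-UCD1.3 index) and counted per gene with featureCounts (Subread 2.0.3). The deposited values are raw counts per Entrez gene, without normalization, 1 library per cow. The labels name a SMARTer Stranded kit and the paper a Truseq-stranded kit. The strand setting and the counting of reads that fit several genes are not given in the sources used here.

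All 37063 identifiers were found in a RefSeq table of the ARS-UCD2.0 assembly, used for names only, because the alignment used another build. No protein, promoter or transcript sequences were used here. All 190 pairs of libraries differed beyond sampling noise (smallest chi-square/df 12.2). The p-values take the cow as the unit, for slopes against the variation between cows and for correlations by permuting cows.

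From the counts, slopes on calf BW were computed with edgeR 4.0.16 (R 4.3.3, TMM, quasi-likelihood test) in 19 cows. The cow excluded, that of the heaviest calf, is the one the paper's methods treat as an outlier. A gene was kept where 5 or more cows had 10 or more counts, and p-values were adjusted over all genes tested by the Benjamini-Hochberg method. Alternatives were other filters and scalings, voom (limma 3.58.1), DESeq2 1.42.0, all 20 cows, covariates, the rank of BW and leaving out each cow. Correlations used log2 CPM with a prior count of 2 in 20 cows and two-sided permutation tests with 100000 resamples (numpy 2.4.6, scipy 1.17.1). The scripts were tested on simulated counts in which 200 genes had a slope of 0.06 per kg in either direction, larger than any member's slope. At an FDR under 0.05 edgeR recovered 64% of them, with 4.48% of its calls false. DESeq2 recovered 69%, with 14.8% of its calls false. Slopes as small as those of the members were not simulated.

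The members and lists were chosen with earlier results of these data known. Named genes are the members, the 10 genes most like them, and from each B cell list those with an unadjusted p under 0.05 or else the 2 most abundant, with abundance taken as CPM, and from lists of other cells at most the 2 most abundant. Any other gene was named after its values were seen. One of the genes most like the members is not reported here.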

Additional observations from a re-analysis of the deposited data

How the results depend on the processing

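No paired analysis was possible because all cows belong to 1 group. Of 270 alternative values of the members' slopes, 258 kept their direction and none passed an FDR of 0.05, the smallest being 0.285. The other 12 changed sign, and the cause was not tested. With all 20 cows the slopes were 0.0032 for MS4A1, 0.00037 for CD22 and 0.0025 for EBF1, and with voom that of MS4A1 was 0.00049. With 1 cow left out the slopes ranged from -0.0056 to 0.0055 for MS4A1, from -0.0036 to 0.0066 for CR2 and from -0.0081 to 0.0034 for EBF1, and those of CD79A, CD79B, PAX5, CD22 and FCRLA stayed between -0.013 and -0.00052. In 19 cows the correlations with BW were -0.058 for PAX5, -0.13 for CD22 and -0.034 for EBF1, in place of 0.030, 0.034 and 0.097. The number of genes with an FDR under 0.05 was 0 with edgeR (2247 at an unadjusted p under 0.05), 4 with all 20 cows, 147 without a filter (3409 at an unadjusted p under 0.05), 191 with DESeq2, 1 with the total count as a covariate, and from 0 to 34 with 1 cow left out (34 when this was the dam of the 32 kg calf). The number of pairs of members with an adjusted p under 0.05 was 28 in each scaling, prior count and set without 1 cow. Without the 3 cows lowest in the members it was 26. With the T cell level taken out it was 30, but the pairs were not the same. They were 23 of the 28 pairs without BLK and 7 pairs with BLK, and the latter are no separate support for a relation, as given above.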
